A study of Mus musculus with 98 samples.

Results

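Retinoic acid pathway genes were followed through the mouse thymic stroma, the cells of the thymus that are not haematopoietic. The 9 members were taken as a list of named genes, with no rule on their values but with earlier results of these data known. They were the retinol carrier Rbp4 and its receptor Stra6, the retinal dehydrogenases Aldh1a1, Aldh1a2 and Aldh1a3, the cellular binding proteins Crabp1 and Crabp2, the degrading enzyme Cyp26b1 and the nuclear receptor Rarb. Each was found by its symbol among the 22231 genes of the single-cell age series, the 20760 genes of the single-cell newborn series and the 39179 gene identifiers of the bulk series.

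In the age series, live Ter119-CD45-EpCAM- cells of wild-type (WT) C57BL/6 thymi were captured for droplet 3′ RNA sequencing from embryos of day E12.5 and day E13.5 (pooled thymi, a single library for either), and in 2 libraries per age from E16.5, from birth (P0) and from 4 weeks of age (W4). In the newborn series, Ter119-CD45- cells fixed in RNAprotect came from 3 P0 mice heterozygous for a Tbx1 LacZ allele and for a germline Crkl null allele (Tbx1+/-Crkl+/-) and from 3 WT littermates, so that every cell of a heterozygous mouse carried both alleles. In the bulk series, WT populations were sorted at P0 and W4 and sequenced by ultra-low-input RNA-seq, in 6 libraries each. These were CD31+ endothelium, Ly51+gp38- perivascular cells (pericytes and vascular smooth muscle), gp38+CD26+ capsular fibroblasts, gp38+CD26- fibroblasts enriched in the medulla, and cortical and medullary thymic epithelial cells (cTEC and mTEC), with mTEChi and mTEClo at W4 alone. By the authors' projection onto the W4 single cells, the gp38+CD26- population also held capsular fibroblasts of the CapFb1 type. The bulk labels do not say whether the 6 libraries of a group came from separate mice, so its p-values measure the spread between these libraries, which may be technical.

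Retinol travels in blood bound to Rbp4, and Stra6 carries it across the plasma membrane. Inside the cell retinol is oxidised to retinal, and the Aldh1a enzymes oxidise retinal to retinoic acid. Crabp1 and Crabp2 bind retinoic acid in the cytoplasm, Cyp26 enzymes break it down, and heterodimers of a retinoic acid receptor with a retinoid X receptor bind paired repeats in DNA and switch target genes on. In embryos, mesenchyme and mesothelium are known sources of retinoic acid, and Rarb is itself one of its best known target genes.

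The single-cell age series held 36208 cells in 8 libraries of 28583048 to 93040640 UMIs (unique molecular identifiers, each counting a captured transcript), with a median of 10005 to 14031 UMIs per cell. The newborn libraries were shallower, with 21451 cells and a median of 2391 to 4686 UMIs. The medians of the 3 heterozygous libraries (2551, 2391 and 2506) lay below those of the 3 WT littermates (2577, 3631 and 4686). The part of this depth in the genotype comparison was not tested. The 83 bulk libraries used held 5785352 to 15852166 gene counts, and 1 library of gp38+CD26+ cells at W4 with 25702 counts was left out, so that group has n = 5. Levels are given as CPM, counts scaled to 1000000 counts of the same library (bulk) or of the same subtype in the same library (single cells), with the authors' labels of 19 subtypes in the age series. A 3′ UMI count does not grow with the length of a transcript, so single-cell levels are set side by side between genes, which is not done for the bulk CPM. One library stood apart. In P0 replicate 1 of the age series, Rbp4 was higher than in replicate 2 in 17 of 18 subtypes, with a median ratio of 4.04, and Cyp26b1 was higher in 17 of 18 with a median ratio of 4.99. Crabp1 was higher in 15 of 18 with a median ratio of 1.90, and Crabp2 in 11, lower in 4 and equal in 3, with a median ratio of 1.82. The same comparison gave 7 of 18 for Aldh1a1, 8 each for Aldh1a2 and Stra6, and 10 each for Aldh1a3 and Rarb. Where a call is given with its values and was lost without this library, that is said beside it. Any pair of libraries shared at most 14 cell barcodes in the age series and at most 5 in the newborn series.

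Marker genes matched the name of the mesothelial subtype. The summed level of Msln, Upk3b, Upk1b and Lrrn4, which mark mesothelium, was 1266 to 3737 CPM by age in the mesothelial cells (Mes), and at most 20.6 CPM in the other subtypes except proliferating cells (Pr) at W4, where it was 389 CPM among 29 cells per library. In the cells labelled neural crest (NC), Foxd3, an early neural crest factor, stood at 429 to 868 CPM by age and Sox10, another, at 175.4 to 334.6 CPM, while the summed markers of fibroblasts stood at 15.8 CPM at E12.5 and 1370 CPM at W4. At W4, NC held 7 cells in each library, and Mes held 2 and 5 cells at E16.5 and 7 cells in P0 replicate 2, so levels there are coarse.

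**Figure D1:**
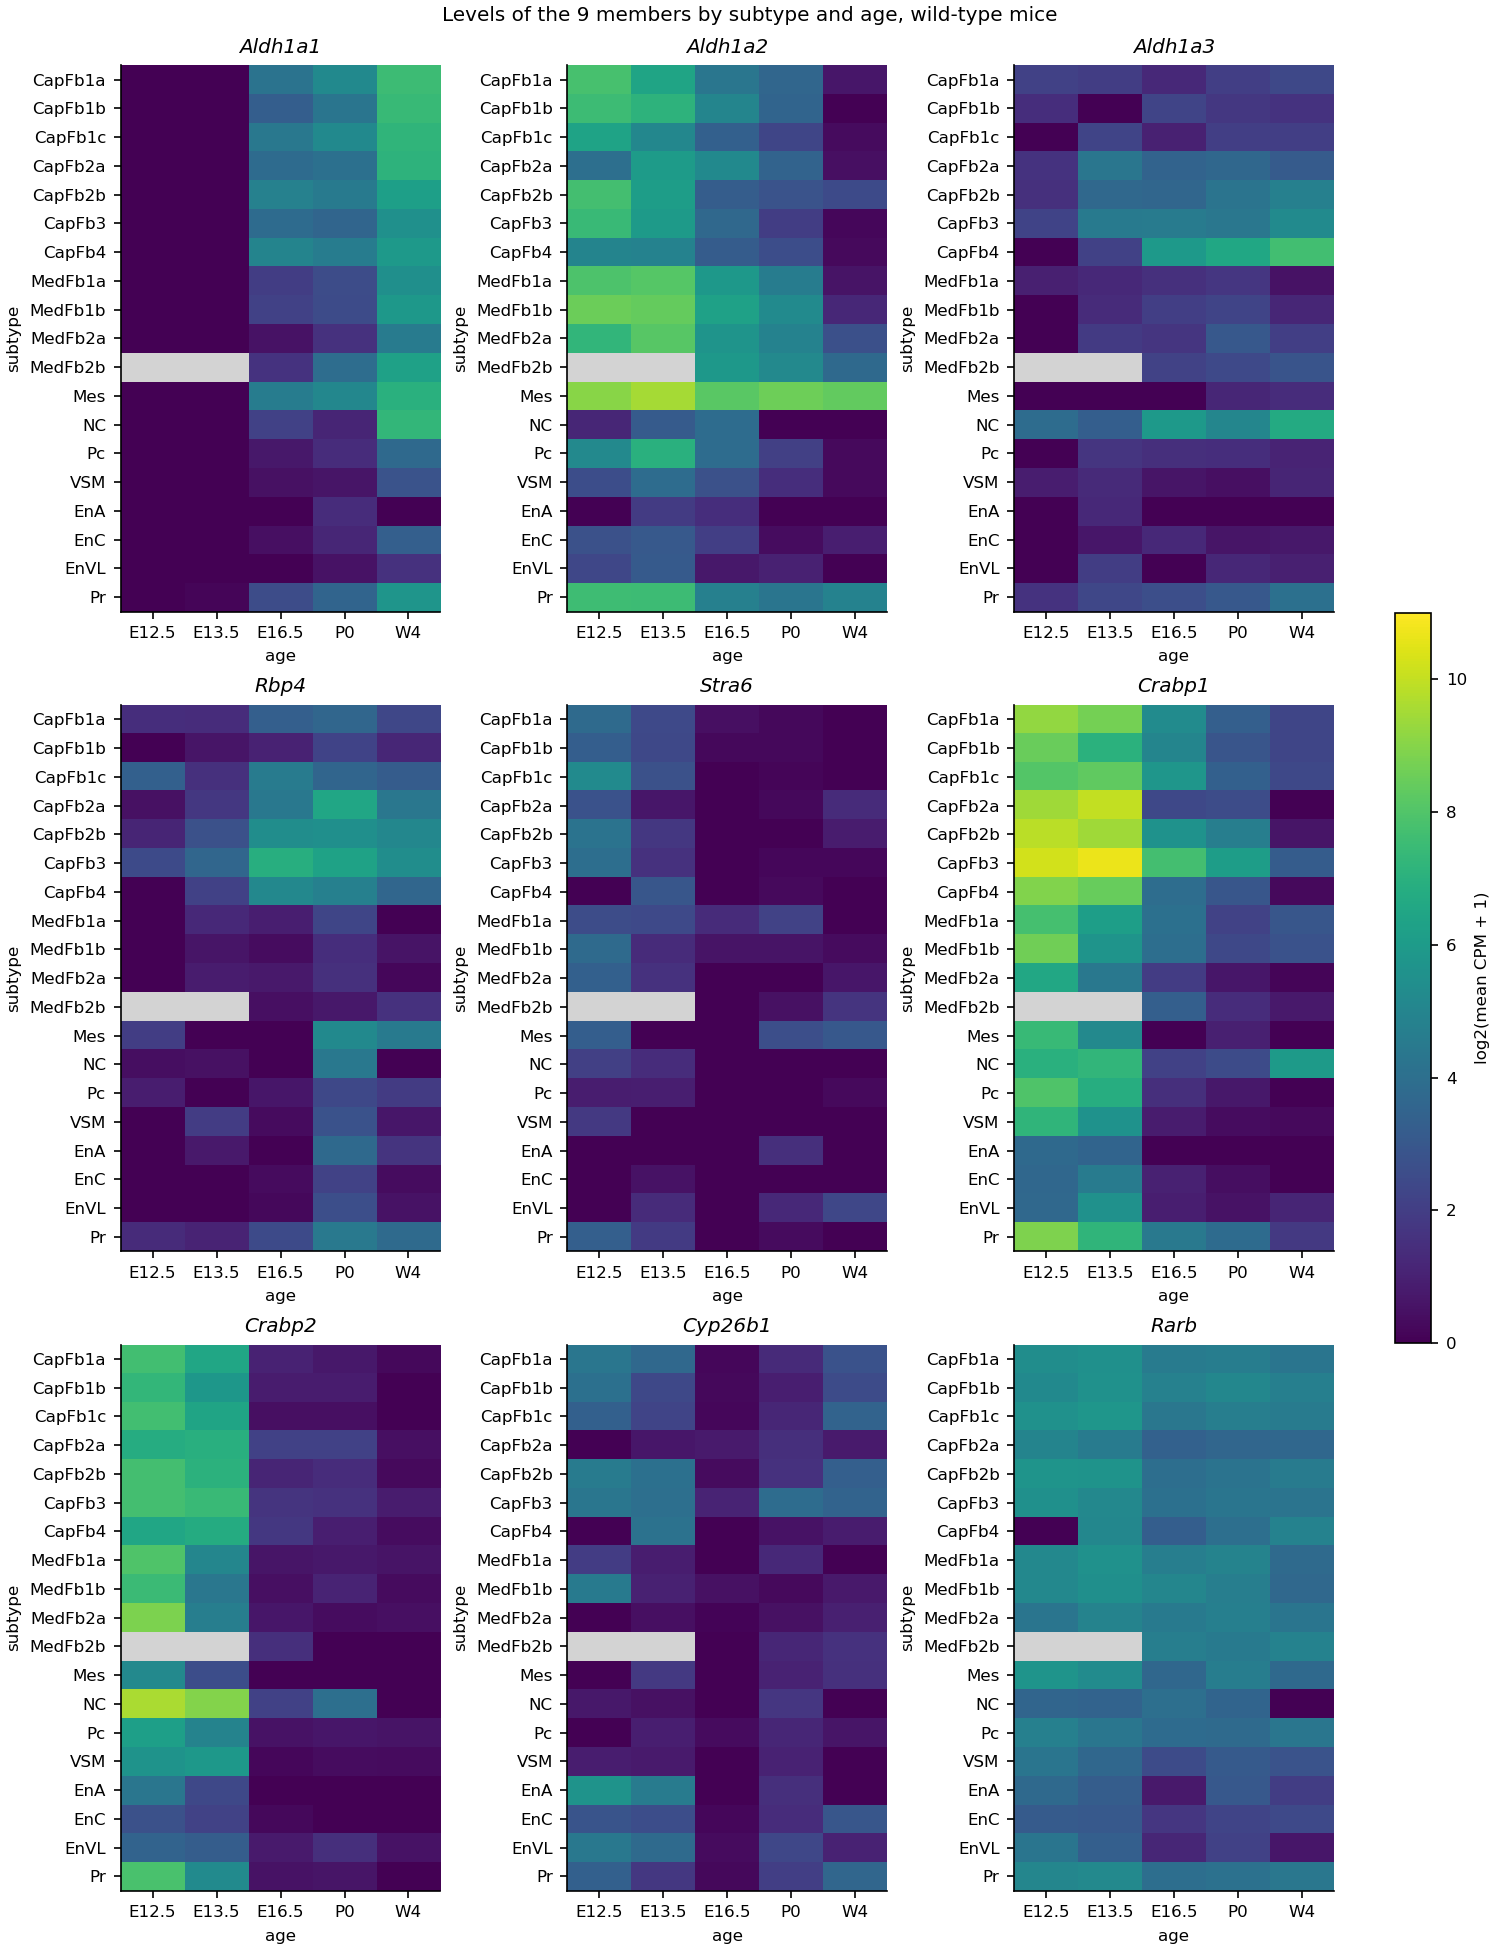
Level of each of the 9 members in 19 stromal subtypes (rows) at 5 ages (columns), as log2(mean CPM + 1) over the libraries of an age with at least 5 cells of the subtype. All genes share the same colour scale, and grey marks where no library had 5 cells. Aldh1a2, Crabp1 and Crabp2 are brightest at E12.5 and E13.5 and Aldh1a1 at W4, while the Aldh1a2 row of the mesothelial cells is bright at every age.

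For the comparison of ages, UMIs were summed per subtype and library with at least 20 cells and tested in 17 subtypes with edgeR's quasi-likelihood F test, with p-values adjusted by the Benjamini-Hochberg method over all genes of the subtype. The test spanned 5 ages in 11 subtypes. In CapFb1c, CapFb4, EnA, MedFb1b and MedFb2a it spanned 4, without E12.5, where these had 6 to 18 cells, and in MedFb2b it spanned 3. Of 153 pairs of a member and a subtype, 116 had enough counts to be tested and 93 passed an adjusted p of 0.05, against 57% of all genes tested in these subtypes (31.2 to 70.6% by subtype). In the 11 subtypes tested with the single E12.5 library, 59 pairs passed without it against 64 with it, 58 of them in both. The Aldh1a1 and Aldh1a2 tests passed in 15 of 15 subtypes each, Stra6 in 6 of 6, Crabp1 and Crabp2 in 14 of 15, Cyp26b1 in 8 of 10, Aldh1a3 in 7 of 10, Rarb in 10 of 16 and Rbp4 in 4 of 14. Between P0 and W4, 46 of the 116 pairs passed, against 28.5% of all genes (10.3 to 47.3% by subtype). Of these pairs 22 were higher and 24 lower at W4, against 14.1% and 14.3% of all genes. Between E16.5 and P0, 28 passed, 10 higher and 18 lower at P0, against 6.95% and 6.55% of all genes. Without P0 replicate 1 the latter contrast had 8 higher and 21 lower and the former 23 higher and 19 lower. Without P0 replicate 2 the latter had 23 higher and 17 lower and the former 20 higher and 37 lower. Without E16.5 replicate 2 the latter had 5 higher and 11 lower. For these counts with a library left out, the share of all genes is not given here. Mes and NC, with at least 20 cells in 5 and 4 libraries, had 1 residual degree of freedom each, under the minimum of 2 that was set, and were not tested.

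Aldh1a1, the dehydrogenase that oxidises retinal in many adult tissues, appeared late. Its gene lies on chromosome 19 from 20492583 to 20643463 (GRCm38.p6). At E12.5 no UMI of Aldh1a1 was counted in any of 18 subtypes, and at E13.5 the 2 UMIs found were both in proliferating cells. In CapFb1a, a capsular fibroblast subtype, its level was 0 at E12.5 and E13.5, 15.6 and 18.5 CPM at E16.5, 36.04 and 37.29 CPM at P0, and 206 and 164 CPM at W4. Libraries of successive ages did not overlap from E13.5 onwards. The W4 mean was at least 353-fold higher than at E12.5, taking 3 counts as the floor of the E12.5 library, and at least 495-fold higher than at E13.5.

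The rise of Aldh1a1 from P0 to W4 passed the test in 14 of 15 subtypes tested. In CapFb1a the log2 fold change was 2.39 ± 0.15 (SE, adjusted p = 9.39e-14). In CapFb1b it was 3.15 ± 0.13 (adjusted p = 5.40e-12), from 17.4 and 19.6 CPM at P0 to 192.05 and 147 CPM at W4. Medullary fibroblasts started lower, and in MedFb1b Aldh1a1 rose from 3.76 and 5.58 CPM to 55.9 and 59.96 CPM, a log2 fold change of 3.55 ± 0.19 (adjusted p = 1.18e-11). Pericytes (Pc) rose from 1.11 and 2.21 CPM to 14.8 and 10.3 CPM. The 15th subtype was capillary endothelium (EnC), with 1.95 and 0.561 CPM at P0 and 1.87 and 15.95 CPM at W4 (adjusted p = 0.117). Arterial endothelium (EnA) had no UMI of Aldh1a1 in either W4 library. Between E16.5 and P0 the gene rose in 6 of the 15 subtypes, among them CapFb1a (1.03 ± 0.18, adjusted p = 0.000228). The mesothelial cells, which were not tested, held 103.1 and 145.4 CPM at W4. Reads of Aldh1a1 and of its close paralog Aldh1a7 can be hard to tell apart.

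Aldh1a2, the main dehydrogenase of the early embryo, went the other way. Its gene lies on chromosome 9 from 71215789 to 71296243. The highest level at every age was in the mesothelial cells, at 521 CPM at E12.5, 726 CPM at E13.5, 292 CPM in the E16.5 library with at least 5 cells, 301 and 455 CPM at P0, and 336 and 315 CPM at W4. Fibroblasts held high levels early. MedFb1b had 372 CPM at E12.5 and 342 CPM at E13.5, then 71.6 and 82.6 CPM at E16.5, 28.7 and 45.4 CPM at P0, and 0.814 and 1.82 CPM at W4. The ages from E13.5 to W4 did not overlap in this subtype.

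Between P0 and W4, Aldh1a2 fell in 11 of 15 subtypes tested and rose in none. In MedFb1b the log2 fold change was -4.81 ± 0.44 (adjusted p = 5.47e-05), and in MedFb1a the level went from 26.1 and 21.6 CPM to 0.971 and 0 CPM, with 1 UMI left at W4 (adjusted p = 5.89e-09). In CapFb1b both W4 libraries were at 0, from 9.95 and 11.7 CPM at P0, so the level was at least 18.3-fold lower than at P0 and at least 312-fold lower than the 185.3 CPM of E12.5. MedFb2a kept more, with 27.0 and 30.4 CPM at P0 and 3.89 and 6.99 CPM at W4, and MedFb2b kept the most of the medullary subtypes, with 29.1 and 40.7 CPM at P0 and 12.73 and 12.02 CPM at W4 (-1.52 ± 0.37, adjusted p = 0.0032). The 4 subtypes that did not pass were CapFb2b (8.16 and 3.77 CPM against 3.99 and 5.07 CPM, adjusted p = 0.522), EnC, vascular smooth muscle (VSM) and Pr. In the W4 libraries of Pr, Aldh1a2 was at 47.8 and 9.26 CPM, and these were the cells with the mesothelial marker sum of 389 CPM and a haematopoietic marker sum of 371 CPM. The part of those cells in the Pr value was not tested. From E16.5 to P0, Aldh1a2 fell in 8 subtypes.

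**Figure D2:**
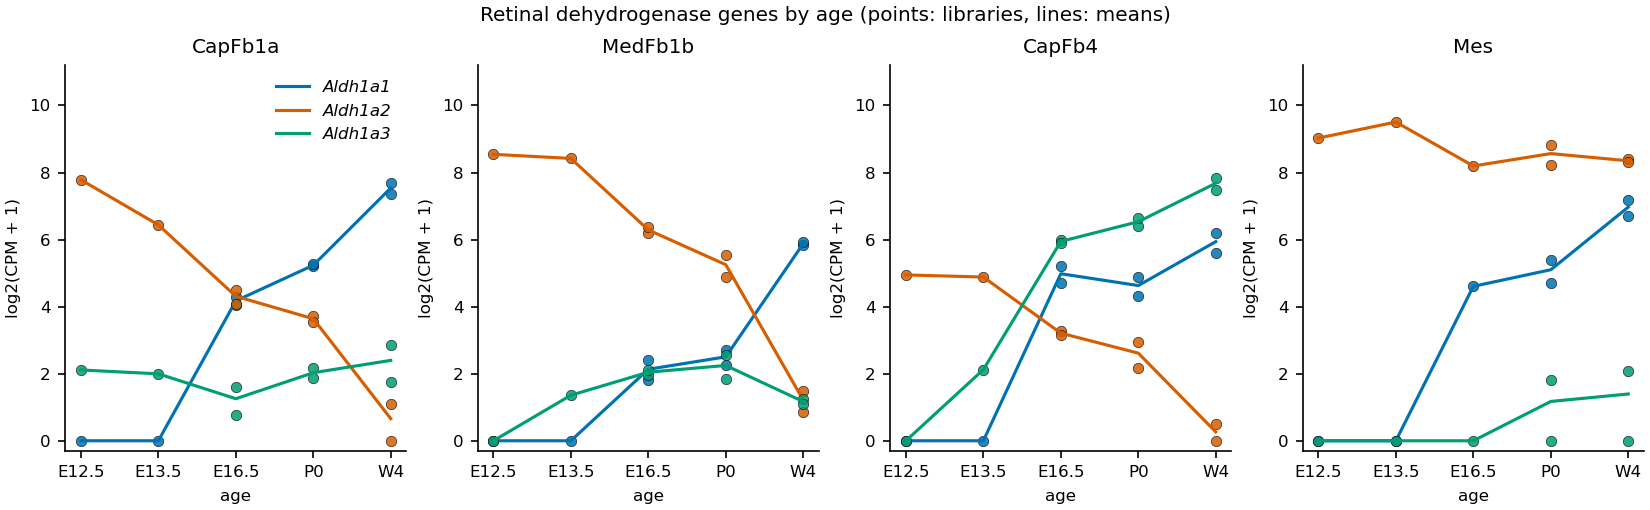
Aldh1a1, Aldh1a2 and Aldh1a3 in CapFb1a, MedFb1b, CapFb4 and mesothelial cells (panels) over the 5 ages, on a log2(CPM + 1) axis, with a point for each library and a line through the mean of each age. In CapFb1a and MedFb1b the Aldh1a2 line falls as the Aldh1a1 line rises, CapFb4 is led by Aldh1a3 from E16.5 on, and the mesothelial cells keep Aldh1a2 at 292 CPM or more.

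Aldh1a3, the third retinal dehydrogenase (chromosome 7 from 66390892 to 66427477), was highest in a capsular subtype at P0 and W4. CapFb4 held 0 CPM at E12.5, among 6 cells, and 3.35 CPM at E13.5. It then held 63.0 and 58.2 CPM at E16.5, 84.3 and 98.9 CPM at P0, and 230 and 179.04 CPM at W4, with no overlap between successive ages. Aldh1a3 rose in CapFb4 from E16.5 to P0 by 0.61 ± 0.12 on the log2 scale (adjusted p = 0.000355) and from P0 to W4 by 1.24 ± 0.11 (adjusted p = 7.81e-12). CapFb2b rose from 19.4 and 16.2 CPM at P0 to 28.3 and 24.8 CPM at W4 (0.66 ± 0.20, adjusted p = 0.0179). Of the 10 subtypes tested, 2 fell from P0 to W4, MedFb1b from 4.94 and 2.55 CPM to 1.36 and 1.14 CPM (adjusted p = 0.0215) and MedFb2a from 5.96 and 8.38 CPM to 2.85 and 3.26 CPM (adjusted p = 0.00709). Without P0 replicate 1, the MedFb1b call was lost. The neural crest cells ranged from 8.65 CPM at E13.5 to 165.1 CPM in a W4 library of 7 cells.

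Set against each other, the 3 enzymes changed places in whole libraries. Of all UMIs of the 3 genes in a library, Aldh1a2 made up 97.8% at E12.5, 96.6% at E13.5, 66.7% and 67.2% at E16.5, 53.9% and 43.3% at P0, and 8% and 17.5% at W4. The share of Aldh1a1 was 0% at E12.5, 0.0196% at E13.5, 17.9% and 18.5% at E16.5, 28.1% and 33.98% at P0, and 71.7% and 63.7% at W4. Aldh1a3 rose from 2.21% at E12.5 to 20.3% and 18.8% at W4. The 3 genes together stood at 143.006 CPM at E12.5, at 38.6 and 39.4 CPM at E16.5, at 49.2 and 36.4 CPM at P0, and at 90.1 and 111 CPM at W4. Whole libraries also differ in the cells they hold. The mesothelial cells, 32 and 157 in number at W4, held 153 of 206 and 676 of 758 Aldh1a2 UMIs. At P0 they were 228 and 7 cells, with 959 of 1603 and 36 of 1064 Aldh1a2 UMIs. Subtypes differed in which enzyme led. In CapFb1a, Aldh1a2 was 98.5% of the 3 enzymes' UMIs at E12.5 and 0% and 0.677% at W4, when Aldh1a1 made up 98.9% and 95.7%. In CapFb4 it was Aldh1a3 that led, with 65.2% and 56.9% at E16.5 and 75.9% and 78.8% at W4, while Aldh1a1 went from 25.9% and 35.4% to 24.1% and 21.1%. In CapFb3 at W4, Aldh1a1 made up 62.8% and 49.4% and Aldh1a3 37.2% and 50.3%. In the mesothelial cells Aldh1a2 still made up 76.5% and 67.9% at W4.

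The upstream sequences of the 2 enzymes that changed places differ in base composition. They are the 250 bases before the start of transcription in RefSeq (GRCm38.p6), in lower case, 5′ to 3′ on the gene's strand. Aldh1a2, chr9:71215539-71215788, plus strand, has 40 CpG dinucleotides and 77.6% G or C. Aldh1a1, chr19:20601718-20601967, plus strand, before the second of its 2 listed starts, has 1 CpG and 46.4% G or C.
Aldh1a2: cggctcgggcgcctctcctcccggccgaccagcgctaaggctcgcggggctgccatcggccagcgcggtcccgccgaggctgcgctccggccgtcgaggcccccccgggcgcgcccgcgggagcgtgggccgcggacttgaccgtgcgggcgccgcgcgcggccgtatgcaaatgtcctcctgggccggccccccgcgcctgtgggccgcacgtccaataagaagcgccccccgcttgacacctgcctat
Aldh1a1: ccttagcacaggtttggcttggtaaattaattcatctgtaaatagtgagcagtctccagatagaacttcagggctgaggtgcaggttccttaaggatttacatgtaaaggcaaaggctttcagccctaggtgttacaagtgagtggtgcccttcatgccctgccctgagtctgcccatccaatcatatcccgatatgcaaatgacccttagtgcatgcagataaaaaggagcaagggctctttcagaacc

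The cellular binding proteins were early genes. Crabp1 (chromosome 9 from 54764748 to 54773110) had the highest whole-library level of the members at E12.5 and E13.5, at 475 CPM and 271 CPM, against 20.5 and 20.1 CPM at E16.5, 8.76 and 8.08 CPM at P0, and 2.73 and 1.84 CPM at W4. Its highest subtype from E12.5 to P0 was CapFb3, with 1233 CPM at E12.5, 1647 CPM at E13.5, 213 and 201 CPM at E16.5, 29.2 and 106 CPM at P0, and 14.5 and 1.79 CPM at W4. The P0 and W4 replicates of CapFb3 differed from each other several-fold, and this was the 1 subtype of 15 in which the test over ages did not pass (adjusted p = 0.0535). Capillary endothelium, which is not mesenchyme, held 11.8 CPM at E12.5 and 22.7 CPM at E13.5.

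Crabp1 fell between E16.5 and P0 in 9 of 15 subtypes. In CapFb1a it went from 32.9 and 45.1 CPM to 9.99 and 8.07 CPM (log2 fold change -2.19 ± 0.19, adjusted p = 1.07e-08), after 585 CPM at E12.5 and 414 CPM at E13.5. From P0 to W4 it fell in 3 subtypes. In CapFb2b it fell from 18.9 and 32.1 CPM to 0.798 and 0.253 CPM (3 UMIs in all at W4, adjusted p = 5.57e-05), and in CapFb4 from 8.35 and 4.97 CPM to 0 and 0.402 CPM (1 UMI at W4, adjusted p = 9.41e-06). The third, CapFb1a (3.93 and 3.86 CPM at W4, adjusted p = 0.0227), lost its call without P0 replicate 1. In CapFb2a no UMI was found at W4, at least 442-fold below the 681 CPM of E12.5. In medullary MedFb1b the level was 4.70 and 3.83 CPM at P0 and 5.16 and 6.36 CPM at W4 (adjusted p = 0.229).

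Crabp2, which hands retinoic acid to nuclear receptors, fell earlier. Its gene lies on chromosome 3 from 87948693 to 87953372. Its whole-library level was 235 CPM at E12.5 and 70.7 CPM at E13.5 and lay between 0.154 and 1.27 CPM in all 6 later libraries. The neural crest cells were highest, with 785 CPM at E12.5 and 491 CPM at E13.5. MedFb2a followed at E12.5 with 457 CPM among 18 cells, and held 25.4 CPM at E13.5 and under 1 CPM afterwards. MedFb1a held 252 CPM at E12.5 and 32.1 CPM at E13.5, while CapFb2a held 111 and 121 CPM. At E12.5 the neural crest factor Foxd3 was also counted in MedFb2a at 245 CPM and in MedFb1a at 131.7 CPM, against 868 CPM in the neural crest cells, and the part of such cells in the Crabp2 levels was not tested. After E13.5 the P0 to W4 contrast passed in 2 of 15 subtypes, at levels near 1 CPM, and the E16.5 to P0 contrast in none with edgeR or DESeq2, where no unadjusted p was under 0.05 with edgeR. In CapFb1b, where both W4 libraries were at 0, Crabp2 was at least 260-fold lower than the 154 CPM of E12.5.

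**Figure D3:**
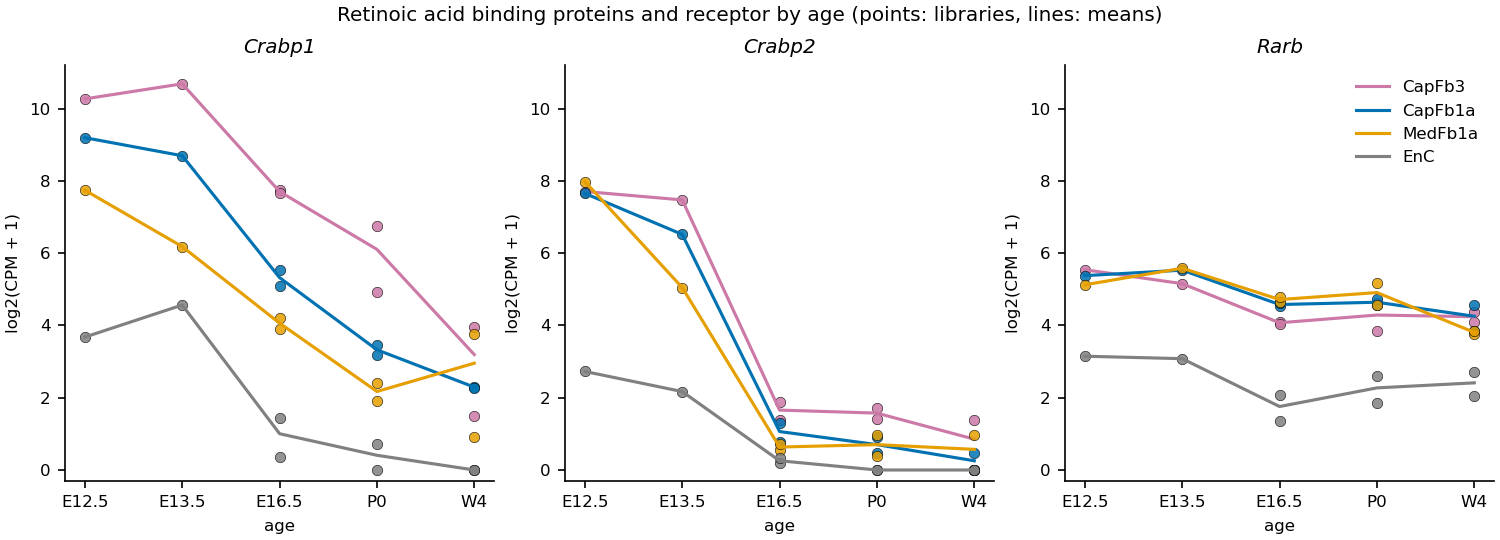
Crabp1, Crabp2 and Rarb in CapFb3, CapFb1a, MedFb1a and capillary endothelium (panels) at 5 ages, on a log2(CPM + 1) axis, with a point for each library and a line through the mean of each age. Both Crabp lines drop steeply between E13.5 and E16.5 in the 3 fibroblast subtypes, while the Rarb line in CapFb1a stays between 13.4 and 45.2 CPM.

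Rarb, the receptor (chromosome 14 from 16430839 to 17082331), was spread over most subtypes, with more than 10 CPM in 16 of 18 at E12.5 and in 14 of 19 at W4. At E13.5 its level ranged from 7.46 CPM in EnC to 53.9 CPM in CapFb1c, with a median of 34.1 CPM over 18 subtypes, and at W4 the median over 19 subtypes was 17.9 CPM. In CapFb1a it was 40.6 CPM at E12.5, 45.2 CPM at E13.5, 22.0 and 23.7 CPM at E16.5, 22.6 and 25.4 CPM at P0, and 13.4 and 22.8 CPM at W4, and the libraries of the last 3 ages overlapped. Capillary endothelium held between 1.55 and 7.87 CPM in every library.

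After birth Rarb moved in opposite directions in the medullary and capsular subtypes that passed the test. It fell in MedFb1a from 22.8 and 35.4 CPM to 12.6 and 13.4 CPM (log2 fold change -1.30 ± 0.28, adjusted p = 0.000696) and in MedFb1b from 21.4 and 28.9 CPM to 10.3 and 13.9 CPM (-1.09 ± 0.19, adjusted p = 7.29e-05). In MedFb2a the fall was smaller, from 26.1 and 25.6 CPM to 17.9 and 19.1 CPM (-0.48 ± 0.14, adjusted p = 0.0117). It rose in CapFb4 from 17.9 and 12.9 CPM to 31.8 and 24.9 CPM (0.92 ± 0.24, adjusted p = 0.00181), and in CapFb2b from 18.0 and 16.6 CPM to 23.1 and 22.3 CPM (0.49 ± 0.18, adjusted p = 0.0493). The CapFb2b call was lost without P0 replicate 1. The other 11 subtypes tested did not pass. Among them the fitted change was negative in CapFb1a (-0.23), CapFb1b (-0.33) and CapFb1c (-0.13), and positive in CapFb2a (0.18), CapFb3 (0.08) and MedFb2b (0.22). The difference between medullary and capsular changes was not itself tested in the single cells.

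The upstream sequence of Rarb is shown because it holds the pair of hexamers through which the gene is known to answer retinoic acid. The 250 bases before its listed start, chr14:16575477-16575726, minus strand (RefSeq, GRCm38.p6), are written 5′ to 3′ on the gene's strand, with the hexamers in capitals.
Rarb: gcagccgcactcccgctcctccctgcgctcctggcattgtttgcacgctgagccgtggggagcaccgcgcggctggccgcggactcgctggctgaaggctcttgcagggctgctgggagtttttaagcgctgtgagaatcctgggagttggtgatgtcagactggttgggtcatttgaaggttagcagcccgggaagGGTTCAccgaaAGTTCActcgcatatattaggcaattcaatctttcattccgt
The pair begins 53 bases before the start and is a direct repeat with 5 bases between the hexamers (DR5). Hexamers were searched as NGNTCA, with A or G at the first N and G or T at the second, on both strands of 300-base windows, from 250 bases before to 50 bases after a start. Such a DR5 occurred in 32 of 32851 windows (0.0974%). Among the 7 members with a listed window, no other held a DR5 or a repeat spaced by 1 or 2 bases, and Aldh1a3 and Crabp2 were not searched. A match is a description of the sequence, and no binding was measured here.

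Of the genes that bring retinol to the cell, Rbp4 (chromosome 19 from 38116620 to 38125321) was highest in capsular subtypes. In CapFb3 it was 4.56 CPM at E12.5, 11.3 CPM at E13.5, 100.6 and 135.6 CPM at E16.5, 58.7 and 103.1 CPM at P0, and 35.5 and 45.97 CPM at W4. The test over ages passed in CapFb3 (adjusted p = 0.00316), and the P0 to W4 contrast did not (log2 fold change -0.82 ± 0.33, adjusted p = 0.132). CapFb2b stayed within 26.8 to 43.6 CPM from E16.5 on. CapFb2a held 158.3 CPM in P0 replicate 1 and 23.8 CPM in replicate 2, and endothelial EnA held 25.4 and 0 CPM in the same 2 libraries, so the P0 values of Rbp4 depend on which library is read. From P0 to W4 Rbp4 passed as lower in MedFb1a, from 6.64 and 1.22 CPM to 0 in both W4 libraries (adjusted p = 0.0392), and in MedFb2a, from 2.84 and 0.838 CPM to 0.259 and 0 CPM (adjusted p = 0.0285). Without P0 replicate 1 neither pair had enough UMIs to be tested, and both calls were lost with DESeq2 and without either W4 library.

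Stra6, the membrane receptor (chromosome 9 from 58063793 to 58154004), was low in the non-epithelial stroma. Its highest subtype levels at E12.5 were 37.1 CPM in CapFb1c, among 10 cells, 17.2 CPM in CapFb2b and 14.6 CPM in CapFb3. At E16.5 the highest library value was 2.29 CPM, in MedFb1a. It fell in MedFb1a from 4.27 and 2.74 CPM at P0 to no UMI in either W4 library (adjusted p = 0.015), which is at least 2.51-fold lower. At W4 it was found in the mesothelial cells at 6.58 and 7.92 CPM and in venous and lymphatic endothelium (EnVL) at 5.62 and 2.41 CPM.

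Cyp26b1, which clears retinoic acid (chromosome 6 from 84571414 to 84593908), was highest in embryonic arterial endothelium, with 49.96 CPM among 10 cells at E12.5 and 23.2 CPM among 140 cells at E13.5. EnA held none at E16.5 or W4. CapFb2b held 22.7 CPM at E12.5, 15.7 CPM at E13.5, 0.261 and 0.207 CPM at E16.5, 3.096 and 0.754 CPM at P0, and 7.98 and 9.88 CPM at W4. Cyp26b1 rose from P0 to W4 in 4 of 10 subtypes tested, among which was no medullary fibroblast subtype, since too few UMIs were counted there: CapFb2b (log2 fold change 2.22 ± 0.44, adjusted p = 0.000595), CapFb1c (2.98 ± 0.69, adjusted p = 0.00283), CapFb1b (2.43 ± 0.74, adjusted p = 0.0145) and CapFb1a (1.94 ± 0.66, adjusted p = 0.0261). The rise from E16.5 to P0 in CapFb2b, from 1 UMI in each E16.5 library (adjusted p = 0.0321), lost its call without P0 replicate 1.

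The genes whose level over the 19 subtypes was most like a member's, by Pearson's r of mean log2(CPM + 1) among 5797 genes, were Pdpn (0.94), Adam33 and Zfyve21 for Aldh1a1, Cstb (0.87), Isoc1 and Psd for Aldh1a2, and Iqgap2 (0.90), S100b and Hdac4 for Aldh1a3. Pdpn encodes gp38, the surface protein used in the bulk sort. For Rarb they were Dapk1 (0.98), Gas1 and Ift27, for Rbp4 Vit (0.93), Sfrp2 and Mfap4, and for Stra6 Ppl (0.78), Gsta3 and Pigp. For Crabp1 they were Nme4 (0.89), Lztfl1 and Vldlr, for Crabp2 Rnf2 (0.90), Col11a1 and Fam19a5, and for Cyp26b1 Cd320 (0.81), Ly6h and Sqor. The points share libraries and depth, and r is a description over these subtypes.

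The other 29 genes of the pathway were counted in the same way. From P0 to W4, 75 of their 289 tested pairs with a subtype passed as higher and 44 as lower, against 14.1% and 14.3% of all genes, and from E16.5 to P0, 77 passed, 39 higher and 38 lower, against 6.95% and 6.55%. Dhrs3, a retinal reductase, rose after birth in 12 subtypes, with a log2 fold change of 3.29 ± 0.19 in CapFb1b. Rarres2, known to respond to retinoids, rose in 14, and Rxra, a partner of the retinoic acid receptors, in 9. Rara, the alpha receptor, fell in 10 subtypes. Fabp5, which can carry retinoic acid to another nuclear receptor, fell in 14 and rose in 2.

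The bulk libraries asked the same of sorted populations, and in them a lower level from fewer cells of a type and from less RNA per cell cannot be told apart. Between P0 and W4, 30 of 54 pairs of a member and a population were tested and 8 passed, 5 higher and 3 lower at W4, against 13.6% of all genes tested. Of these, 4 lay in gp38+CD26+ cells (13.2% of all genes), 2 in gp38+CD26- cells (24.2%) and 2 in cTEC (22.0%). In mTEC 9 members were tested (6.16% of all genes passed) and in Ly51+gp38- cells 4 (12%), and none passed with edgeR. In mTEC 3 members had an unadjusted p under 0.05, a count for which no share of all genes is given here. In CD31+ cells no member passed the low-count filter. Stra6 had no read there in the 6 P0 libraries and stood at 0, 6.66, 7.49, 8.59, 15.2 and 28.6 CPM at W4. By the means it was at least 259.6-fold higher, with 3 counts over the P0 group as the floor. That floor covers counting error only, not the spread between libraries. Fitted with no filter, that change had an adjusted p of 0.0308 with edgeR. Erythroid markers summed to 138 to 3462 CPM in the CD31+ libraries at W4 and 3.30 to 117 CPM at P0, and their part was not tested. Aldh1a3 was found in 2 of 6 CD31+ libraries at P0, at 8.16 and 15.4 CPM, and in none at W4 (adjusted p = 0.191 with no filter).

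In the gp38+CD26+ population, named for capsular fibroblasts, the bulk levels of the 3 dehydrogenases and Stra6 rose after birth. Aldh1a3 went from 11.4 ± 4.91 CPM at P0 (SD, n = 6, range 5.71 to 19.9, median 11.3) to 50.3, 106.6, 110, 145 and 173.3 CPM at W4, without overlap (log2 fold change 3.46 ± 0.37, adjusted p = 7.82e-05). Aldh1a1 ranged from 77.8 to 213 CPM at P0 with a median of 147.8 CPM, and from 197 to 300 CPM at W4 with a median of 276 CPM (0.99 ± 0.23, adjusted p = 0.0139). The 2 ages overlapped for Aldh1a1. When the shallow library was kept, 2 of the 4 member calls of these cells were lost, that of Aldh1a1 among them.

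Aldh1a2 rose in the gp38+CD26+ cells from 5.11 ± 4.64 CPM at P0 (SD, n = 6, range 0 to 12.3, median 3.87) to 6.86, 37.1, 65.3, 67.1 and 69.6 CPM at W4 (log2 fold change 3.39 ± 0.90, adjusted p = 0.026). The call was lost without replicate 3, 4 or 6 of W4, with adjusted p up to 0.0605. The summed level of the 4 mesothelial markers moved with it. That sum was 691 CPM in the W4 library with 6.86 CPM of Aldh1a2, 2274 CPM in that with 37.1 CPM, and 4721 to 6256 CPM in the other 3, against 0 to 511 CPM at P0, and its part in the change of Aldh1a2 was not tested. No capsular fibroblast subtype of the single cells showed this rise of Aldh1a2. There it fell from P0 to W4 in CapFb1a, CapFb1b, CapFb1c, CapFb2a, CapFb3 and CapFb4, and the change in CapFb2b did not pass. In CapFb4 the log2 fold change was -4.08 ± 0.89 (edgeR, adjusted p = 0.000222). The mesothelial cells held a mean of 325 CPM at W4. In the bulk gp38+CD26+ cells Stra6, with 1 read in 1 of 6 P0 libraries, ranged from 2.53 to 25.5 CPM at W4 (adjusted p = 0.00041). Erythroid marker genes summed to 506 to 1284 CPM in these W4 libraries and to at most 2.39 CPM at P0, and their part was not tested either.

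In gp38+CD26- cells, by contrast, Aldh1a2 fell. It ranged from 25.9 to 67.2 CPM at P0 with a median of 38.2 CPM, and from 2.002 to 14.9 CPM at W4 with a median of 6.26 CPM, without overlap (log2 fold change -2.28 ± 0.45, adjusted p = 0.00186). Rarb fell as well, from 80.3 to 232 CPM at P0 (median 153) to 14.7 to 57.5 CPM at W4 (median 28.1), again without overlap (-2.11 ± 0.35, adjusted p = 0.00052). In gp38+CD26+ cells the change of Rarb did not pass (-0.74 ± 0.32, adjusted p = 0.17), with means of 80.4 ± 30.02 CPM (SD, n = 6) at P0 and 45.5 ± 15.4 CPM (n = 5) at W4. Aldh1a1 stood at 78.1 ± 24.1 CPM at P0 and 100.5 ± 45.4 CPM at W4 in gp38+CD26- cells (SD, n = 6, adjusted p = 0.257). Erythroid markers, with sums given below, were higher in the gp38+CD26- libraries at W4, and their part in these changes was not tested.

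Whether the age change itself differed between related populations was tested as an interaction, where 5 of 17 tested pairs passed against 5.24% of all genes. The change of Aldh1a2 was higher in gp38+CD26+ than in gp38+CD26- cells by 5.69 ± 1.03 on the log2 scale (adjusted p = 0.00196), that of Aldh1a3 by 4.31 ± 0.77 (adjusted p = 0.00184) and that of Stra6 by a fitted 9.81 ± 2.58 (adjusted p = 0.0274), the last resting on the single read at P0. For Rarb the difference of 1.37 ± 0.49 did not pass (adjusted p = 0.118). In the epithelium, the change of Crabp2 was lower in cTEC than in mTEC by 4.04 on the log2 scale (-4.04 ± 0.69, adjusted p = 0.000687), and that of Crabp1 by a fitted 5.77 (-5.77 ± 1.51, adjusted p = 0.0297). Crabp1 had reads in 2 of 6 cTEC libraries at P0 and in none at W4, so the fitted value is no measured fold. The cTEC libraries of P0 and W4 overlapped at 0, and the change of Crabp1 within cTEC alone was not tested.

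**Figure D4:**
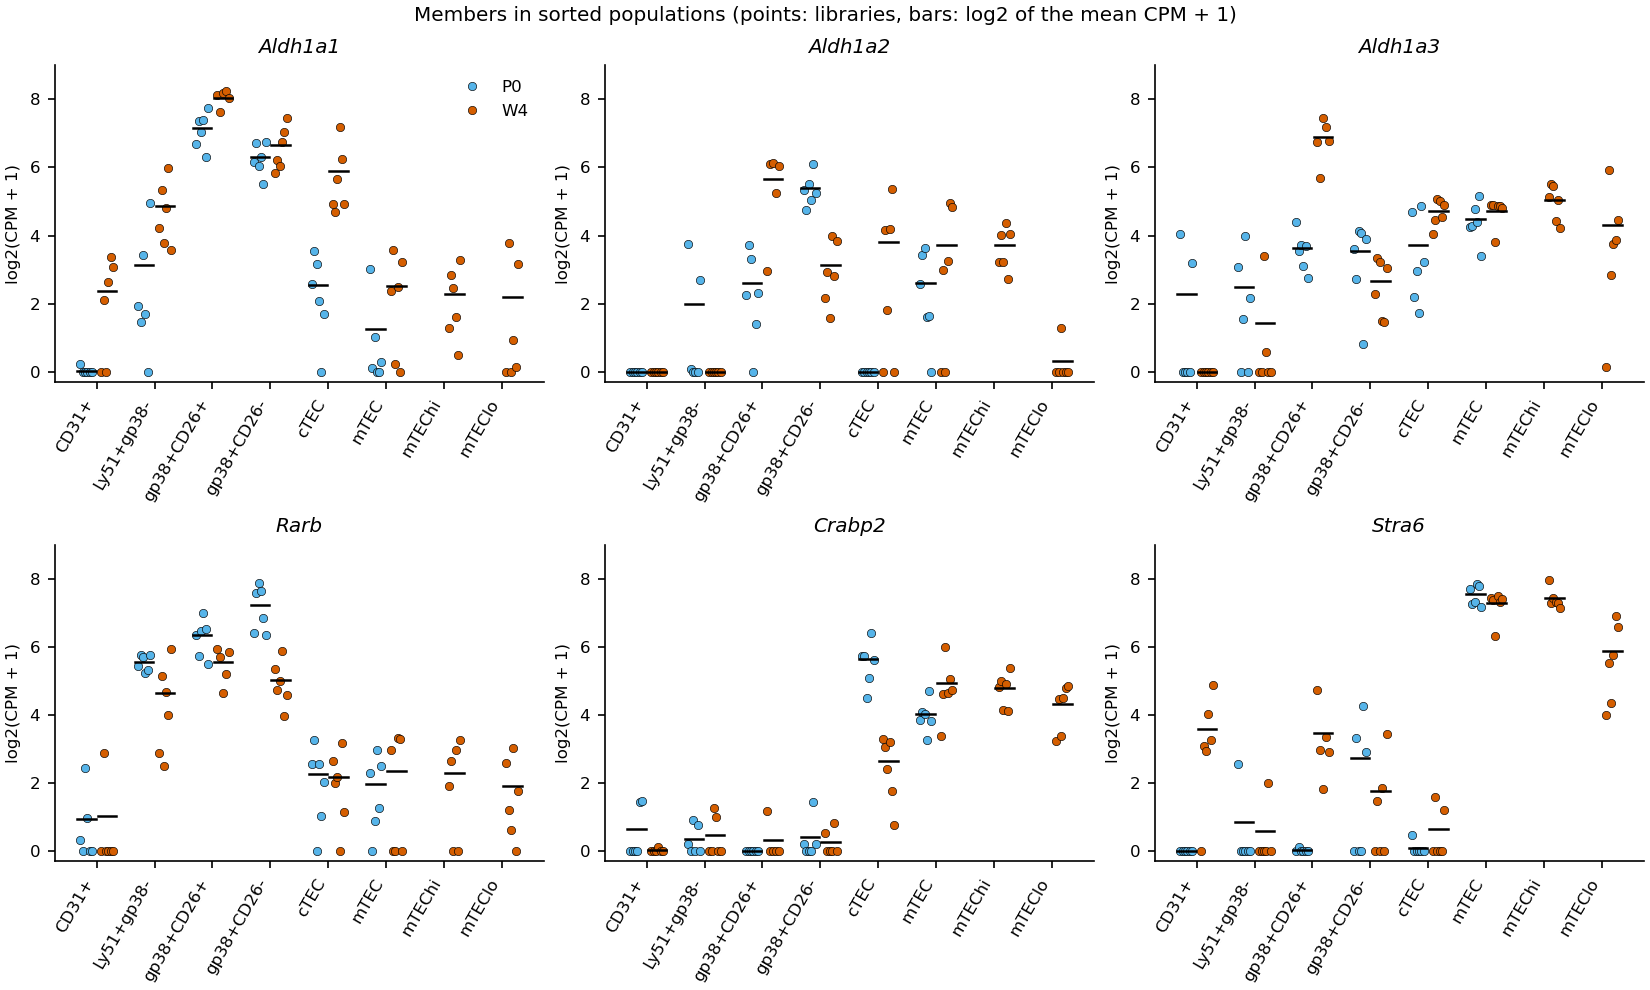
Bulk levels of Aldh1a1, Aldh1a2, Aldh1a3, Rarb, Crabp2 and Stra6 (panels) in the 8 sorted populations, on a log2(CPM + 1) axis, with a point for each library at P0 (blue) and W4 (orange) and a bar at log2(mean CPM + 1). In the Aldh1a2 panel gp38+CD26+ is higher at W4 and gp38+CD26- lower, Stra6 is above 78 CPM in every mTEC library, and Crabp2 in cTEC falls from a mean of 48.4 to 5.30 CPM.

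Epithelial cells held other members of the pathway. Crabp2 in cTEC ranged from 21.6 to 83.4 CPM at P0 (median 49.9) and from 0.695 to 8.83 CPM at W4 (median 5.82), without overlap (log2 fold change -3.14 ± 0.51, adjusted p = 0.000616). In mTEC it stood at 15.2 ± 5.44 CPM at P0 and 29.7 ± 18.0 CPM at W4 (SD, n = 6, adjusted p = 0.242). Aldh1a1 rose in cTEC from at most 10.8 CPM at P0 (median 4.07) to between 24.9 and 143.3 CPM at W4 (median 39.3), without overlap (3.65 ± 0.74, adjusted p = 0.00284). Aldh1a2, which did not pass the low-count filter, had no read in cTEC at P0 and 0 to 40.6 CPM at W4. Fibroblast markers also rose in those libraries, from a sum of at most 1.84 CPM at P0 to 36.9 to 817 CPM at W4, haematopoietic markers stood at 398 to 1860 CPM against 24.7 to 46.3 CPM, and the 4 mesothelial markers at 16.6 to 2683 CPM against at most 5.43 CPM. The part of these markers' cells in the Aldh1a1 and Aldh1a2 levels was not tested. Cyp26b1 in cTEC was 35.6 ± 14.6 CPM at P0 and 33.3 ± 15.4 CPM at W4 (SD, n = 6, adjusted p = 0.944).

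Stra6 was high in the medullary epithelium. In mTEC it was 184.6 ± 37.4 CPM at P0 and 153 ± 37.01 CPM at W4 (SD, n = 6, adjusted p = 0.66), and in cTEC it was found in 1 of 6 libraries at P0 and 2 of 6 at W4, at no more than 2.01 CPM. At W4 mTEChi cells, the mature fraction, ranged from 140 to 246 CPM with a median of 156.3 CPM, and mTEClo cells from 14.8 to 119.4 CPM with a median of 48.9 CPM, without overlap (log2 fold change 1.76 ± 0.44, adjusted p = 0.0143). Between mTEChi and mTEClo 3 of 9 members passed, all higher in mTEChi, against 16.4% of all genes. The others were Crabp1, from 22.3 to 31.5 CPM in mTEChi and 0 to 5.85 CPM in mTEClo (3.21 ± 0.78, adjusted p = 0.0122, and 0.061 with the title number modulo 12 as a replicate block), and Aldh1a2, at 12.1 ± 5.47 CPM in mTEChi (SD, n = 6) and found in 1 of 6 mTEClo libraries at 1.45 CPM (adjusted p = 0.0175). The 4 mesothelial markers summed to 444 to 583 CPM in mTEChi and 523 to 946 CPM in mTEClo.

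Across populations of 1 age, 25 of 72 pairs passed, 3 higher and 22 lower, against 20.7% of all genes. Of these, 7 at P0 (34.5% of all genes) and 5 at W4 (28.8%) came from CD31+ endothelium against the mean of both gp38+ populations, where Aldh1a1 at P0 had 2 reads in 1 of 6 CD31+ libraries (0.164 CPM) against 44.3 to 213 CPM in the gp38+ libraries (adjusted p = 3.26e-07), and Rarb was lower by a fitted 7.01 on the log2 scale (-7.01 ± 1.004, adjusted p = 1.08e-06). The 1 member that passed as higher in CD31+ cells was Crabp2 at P0 (adjusted p = 0.0244), with 1.73 and 1.75 CPM in 2 of 6 libraries and no read in the others, against at most 1.74 CPM in the gp38+CD26- libraries and no read in the gp38+CD26+ libraries. Rarb was found in 3 of 6 CD31+ libraries at P0, at up to 4.38 CPM, and no read of Aldh1a2 was found in any CD31+ library. The Ly51+gp38- cells held less Aldh1a1 than the gp38+ cells at both ages (-3.87 ± 0.97, adjusted p = 0.00473 at P0, and -2.60 ± 0.78, adjusted p = 0.0149 at W4). Between the fibroblast populations, Stra6 was lower in gp38+CD26+ cells at P0 (adjusted p = 0.0161), with 1 read in all 6 libraries together, against 9.02, 18.04 and 6.56 CPM in 3 gp38+CD26- libraries and no read in the other 3, so the groups overlapped at 0. Aldh1a3 was higher in gp38+CD26+ cells at W4 (4.50 ± 1.02, adjusted p = 0.00623). In cTEC against mTEC, Crabp1 at W4 was at least 560-fold lower, Stra6 was lower at both ages, and Aldh1a1 was higher at W4 (3.46 ± 0.87, adjusted p = 0.00386). Rbp4, with no read in cTEC at P0, was at least 201-fold lower there than in mTEC.

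The other pathway genes of the bulk libraries passed in 20.4% of the pairs tested between ages, 16 higher and 6 lower at W4, against 13.6% of all genes, and in 81 of 216 between populations, against 20.7%. Adh1, an alcohol dehydrogenase, fell in gp38+CD26+ cells (log2 fold change -2.75 ± 0.34), in gp38+CD26- cells (-2.28 ± 0.23) and in Ly51+gp38- cells (-1.97 ± 0.60), and rose in cTEC (3.69 ± 1.05). In the single cells Adh1 fell between P0 and W4 in MedFb2a (-1.45 ± 0.23) and rose in CapFb4 (1.77 ± 0.24), CapFb2a (1.15 ± 0.31) and CapFb1b (0.67 ± 0.11). Tgm2, known to respond to retinoic acid, fell there in pericytes (-0.93 ± 0.16) and rose in CapFb2b (1.06 ± 0.31) and EnC (1.14 ± 0.11), among others. In the bulk libraries Tgm2 rose in gp38+CD26+ cells (1.42 ± 0.43), in gp38+CD26- cells (1.47 ± 0.15), in CD31+ cells (0.92 ± 0.23) and in cTEC (3.88 ± 0.59). Nr2f2, listed with Tgm2 as known to respond, fell in the gp38+CD26+ cells (-1.24 ± 0.30). Markers of other cells moved in the same libraries. Beside the sums given above, erythroid markers summed to 12.1 to 1333 CPM at W4 in gp38+CD26- cells against at most 0.534 CPM at P0, to 15.8 to 622 CPM in cTEC against at most 0.646 CPM, and to 3.47 to 230.1 CPM in Ly51+gp38- cells against at most 1.66 CPM. Haematopoietic markers summed to 84.8 to 323 CPM in the Ly51+gp38- cells at W4 against 4.60 to 29.5 CPM. Their part in the changes of Adh1, Tgm2 and Nr2f2, and of the members in the same populations, was not tested. Cyp26a1, which breaks down retinoic acid as Cyp26b1 does, was higher in mTEChi than in mTEClo cells by 2.92 ± 0.42. Cyp26c1, a related enzyme, passed as higher too (adjusted p = 0.000228).

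The newborn series asked whether the members differ in Tbx1+/-Crkl+/- mice. Of 162 pairs of a member and a subtype, 24 had enough UMIs to be tested, and none passed with edgeR, against 0.0549% of all genes tested. With DESeq2 also none passed. With edgeR 4 of the 24 had an unadjusted p under 0.05, a count for which no share of all genes is given here. Crabp2 had the lower mean in heterozygous mice in perinatal cTEC (PcTEC), with 68.6, 83.5 and 36.03 CPM against 86.8, 147 and 117 CPM in WT littermates (log2 fold change -0.95 ± 0.32, adjusted p = 0.648). In mature cTEC (McTEC) it was 61.7, 43.01 and 23.4 CPM against 51.4, 82.5 and 82.6 CPM (-0.90 ± 0.34, adjusted p = 0.833). The genotypes did not overlap in the former and overlapped in the latter. Here and in the values below, the share of all genes whose genotypes do not overlap is not given.

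Rarb in MedFb2a fibroblasts was 9.50, 21.8 and 18.4 CPM in the heterozygous libraries and 44.4, 35.8 and 32.9 CPM in WT littermates, without overlap (-1.01 ± 0.37, adjusted p = 0.609). Crabp1 in mature mTEC (MmTEC) was 29.8, 12.03 and 3.50 CPM against 5.21, 140 and 106 CPM (-2.92 ± 0.95, adjusted p = 0.362), and the WT littermate with 5.21 CPM lay among the heterozygous values. That difference passed without this WT littermate, with no filter on low counts, and with the replicate number as a block. Aldh1a1 in CapFb1b was 34.9, 65.7 and 49.7 CPM against 18.1, 24.8 and 49.4 CPM (0.61 ± 0.33, adjusted p = 0.772). Stra6 stood highest in MmTEC in both genotypes, at 42.7 ± 16.55 CPM in heterozygous mice and 38.9 ± 16.1 CPM in WT littermates (SD, n = 3). Epcam, an epithelial gene, was counted at 57.4 CPM in CapFb1a cells of heterozygous mice, and the part of free RNA in these levels was not tested. Of the other 29 pathway genes, 176 pairs were tested, none passed with edgeR, and 25 had an unadjusted p under 0.05, again with no share of all genes given.

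**Figure D5:**
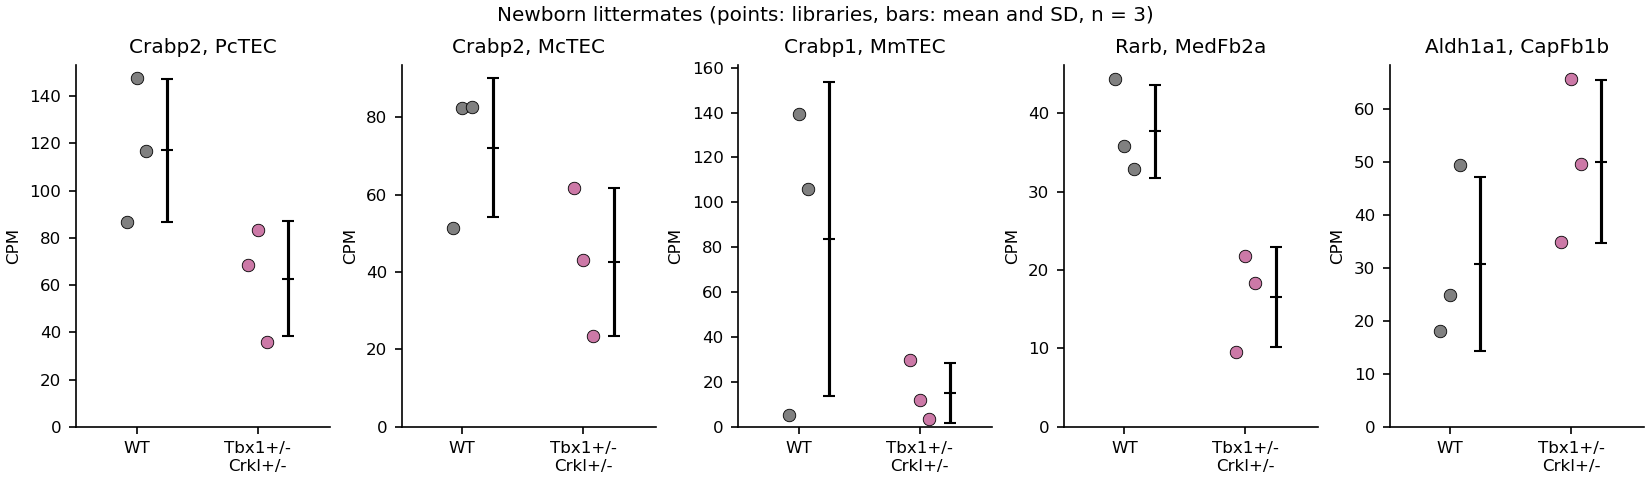
Level (CPM) of Crabp2 in PcTEC and McTEC, Crabp1 in MmTEC, Rarb in MedFb2a and Aldh1a1 in CapFb1b of newborn WT littermates and Tbx1+/-Crkl+/- mice, with a point for each of 3 libraries and the mean and SD of each genotype. The genotypes are apart in Crabp2 of PcTEC and Rarb of MedFb2a and overlap in the other panels. None of the differences passed the adjusted test, and the share of all genes apart in this way is not given.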

How the data were processed

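The authors made the single-cell files with Cell Ranger 3.1.0, kept cells by filters on genes, mitochondrial UMIs and DoubletFinder calls, removed contaminant clusters and labelled subtypes in Seurat. The authors deposited UMI counts of each cell by gene, not normalized, and whole read counts per Ensembl gene for the bulk libraries. The submitters' notes also name STAR 2.5.3a and HTSeq, and which build applies to which table is not given in the sources used here. Entries of no gene were 7.81 to 16.6% of bulk counts and were left out, and 37607 of 39179 identifiers had a symbol.

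UMIs were summed per subtype and library (at least 20 cells for tests, 5 for levels), and ages were tested where at least 3 ages and 2 residual degrees of freedom were left. Counts were tested with edgeR 4.0.16 in R 4.3.3 (TMM scaling, filterByExpr, robust quasi-likelihood fit), with Benjamini-Hochberg adjustment over all genes of a comparison and a threshold of 0.05. Subtypes, and populations compared between ages, had 1 fit each. Contrasts between populations came from 1 fit per age on 6 populations together. The interactions, and mTEChi against mTEClo, had 1 fit per pair of populations. SE is the log2 fold change over the root of F. Bulk libraries under 1000000 gene counts were left out. DESeq2 1.42.0, other scaling, no filter, at least 50 cells, the title prefix as a term, blocks and libraries left out were alternatives, and the scripts were tested on simulated data. A bound against a group at 0 takes 3 counts over the group, which covers counting error only and not the spread between libraries. No test was made between subtypes, which the authors clustered on these genes. The 2 or more libraries of an age are treated as replicates, and the single E12.5 and E13.5 libraries are assumed to vary like the others.

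The members, and the 29 other pathway genes and marker lists, were chosen with earlier results of these data known. All 9 members entered the counts of each comparison, but not every member is named in each. In the newborn results Rbp4, Aldh1a2, Aldh1a3 and Cyp26b1 are not named. Beside the members stand at most 4 other pathway genes per comparison, those past the threshold with the largest fold change, and for each member the 3 most alike genes with at least 50 CPM in a subtype. Outliers were looked for in bulk groups with a mean of at least 10 CPM. Sequences came from RefSeq tables (GRCm38.p6), which held 7 of the 9 members.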

Additional observations from a re-analysis of the deposited data

Results flagged for a closer look

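Dixon's test at the 95% level was run over the libraries of 47 pairs of a member and a bulk group with a mean of at least 10 CPM, and 4 held a library apart from the rest, where chance gives about 1 in 20. Aldh1a2 in gp38+CD26+ cells at W4 was 6.86 CPM in replicate 1, below the 37.1 to 69.6 CPM of the other 4 libraries. Aldh1a3 in mTEC at W4 was 13.1 CPM in replicate 3, against a group median of 28.1 CPM, and Stra6 in the same library was 78.99 CPM, against a median of 166 CPM. That mTEC library had the highest erythroid marker sum of its group (1902 CPM) and the lowest sum of TEC markers (1975 CPM against a median of 3715 CPM), and their part in the levels was not tested. Stra6 in mTEChi at W4 was 246 CPM in replicate 1, above a median of 156.3 CPM.

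In 5 cases a member's change from P0 to W4 differed between related populations by the test of the interaction. Between gp38+CD26+ and gp38+CD26- cells the log2 changes differed by 5.69 for Aldh1a2, 4.31 for Aldh1a3 and a fitted 9.81 for Stra6. Between cTEC and mTEC they differed by a fitted -5.77 for Crabp1, which had no read in cTEC at W4, and by -4.04 for Crabp2.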

How the results depend on the processing

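In the single-cell ages, the 93 calls over ages became 53 with the replicate number as a block on the E16.5, P0 and W4 libraries, and 49 on those libraries without the block, a fit chosen after seeing the data. No filter added 20 calls and lost 0, DESeq2 gave 82, and leaving out 1 library gave 83 to 106, where a subtype whose test did not hold that library kept its calls. The count of members called between P0 and W4 was 46, with 33 to 57 with 1 of the P0 and W4 libraries left out, and 28 with DESeq2. Between E16.5 and P0 it was 28, with 40 without P0 replicate 2, 16 without E16.5 replicate 2, 42 with no filter and 15 with DESeq2. In the 11 subtypes tested with E12.5, leaving it out moved the calls over ages from 64 to 59, those between P0 and W4 from 27 to 26, and left those between E16.5 and P0 at 14, with 78 pairs tested against 82. On the 3 later ages 76 pairs could be tested, against 116, and no other cause was tested. In the genotype comparison the 0 calls became 1 with no filter, 1 without WT littermate replicate 1 and 1 with the replicate block, in each case Crabp1 in MmTEC, and 0 to 1 when 1 library was left out. The bulk counts by age (8) ranged from 6 to 10, by population (25) from 24 to 26, between mTEChi and mTEClo (3) from 2 to 3, where Crabp1 was lost under the block (adjusted p = 0.061), and for the difference of age changes (5) from 5 to 7. For none of these alternatives is the share of all genes given.

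No bulk title number occurs more than once, so bulk samples were matched by the title number modulo 12, and single-cell samples by replicate number. Samples matched in this way deviated together by r over 0.1 in 17 of 90 and 8 of 85 bulk pairs, 1 of 6 mTEChi and mTEClo pairs, 1 of 3 genotype pairs and 0 of 6 age pairs, so the numbers were not taken to pair the samples. Bulk libraries of an age matched in this way also share the title prefix, and their median r was 0.0524 at P0 and 0.0306 at W4, against -0.0117 and -0.00835 for other pairs. Of 1409 alternative values of 130 named member results, 1275 kept the direction and the side of the threshold, 129 kept the direction and lost the call, 5 kept the direction and gained it, and none turned. The subtype with the highest level was found in 35 pairs of a member and an age above 10 CPM, and it was the same in 30 by the share of cells with a UMI after thinning to 2000 UMIs and in 29 with at least 20 cells. In the newborn series 24 of 162 pairs had enough UMIs to be tested.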
